A study of Homo sapiens with 12 samples.

Results

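Expression of 10 genes of the NF-kappaB inflammatory programme was examined in human colorectal cancer cells after knockdown of BRG1, the ATPase of the SWI/SNF chromatin remodelling complex that is encoded by SMARCA4. They are the CXC chemokine genes CXCL1, CXCL2, CXCL3, CXCL5, CXCL6 and CXCL8, the CC chemokine gene CCL20, and NFKBIA, TNFAIP2 and TNFAIP3. The genes were taken by symbol, as a set chosen with earlier results of these data known, and each of the 10 was represented by a single feature among the 17687 genes tested. Total RNA was measured on 12 single-colour Affymetrix arrays in 4 groups of 3: DLD1 cells given siBRG1, DLD1 cells given siControl, HCT 116 cells given siBRG1 and HCT 116 cells given siControl. DLD1 and HCT 116 are established colorectal cancer lines, and no other agent or allele is named for any group. Neither the siRNA sequences nor the hours between transfection and harvest are stated in what was available. Nothing states that the 3 arrays of a group are from independent cultures, so each p-value reflects the spread between arrays, and that spread may be technical. The source names of 4 HCT 116 samples, replicates 2 and 3 of both groups, carry another number in the name of the line or the siRNA than their titles do. They were grouped by title. Results in HCT 116 for the 10 genes and the pathway genes named are also given with these 4 arrays left out, which leaves 1 array in each HCT 116 group.

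NF-kappaB is a family of dimeric transcription factors that are held in the cytoplasm by inhibitor proteins and released when receptors for tumour necrosis factor, interleukin-1 or microbial products are engaged. In epithelium its target genes include secreted chemokines. CXCL1, CXCL2, CXCL3, CXCL5, CXCL6 and CXCL8 (interleukin-8) attract neutrophils through CXCR2, with CXCL6 and CXCL8 also acting on CXCR1, and CCL20 attracts lymphocytes and dendritic cells through CCR6. Other targets feed back on the pathway: NFKBIA encodes the inhibitor IkappaB-alpha, and TNFAIP3 encodes the ubiquitin-editing enzyme A20. TNFAIP2 is a cytoplasmic protein induced by tumour necrosis factor and linked to the formation of membrane protrusions.

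The proximal promoters are shown because kappaB sites, the DNA elements bound by NF-kappaB, are the textbook link between these genes. All 10 genes matched a RefSeq promoter on GRCh38.p14, and the 250 bases before each start were searched on both strands. The run GGAATTTCC was found in 7 of 10 members (CXCL1, CXCL2, CXCL3, CXCL5, CXCL6, CXCL8 and, on the opposite strand, NFKBIA), against 145 of 35116 promoters in the RefSeq table, or 0.413%. The kappaB consensus, searched by name and overlapping that run in some genes, was found in 8 of 10 members, against 5.21% of promoters. It added CCL20 and TNFAIP3, each with matches on the opposite strand, and left out CXCL8, while TNFAIP2 had neither. The AP-1 run TGACTCA was found in 1 member, CXCL8, against 4.2% of promoters. The windows below are read 5′ to 3′ along the gene's strand, with the matched bases in capitals and 25 bases on either side.
CXCL1: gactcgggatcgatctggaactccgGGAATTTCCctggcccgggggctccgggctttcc
CXCL2: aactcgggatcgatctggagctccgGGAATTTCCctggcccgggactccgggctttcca
CXCL3: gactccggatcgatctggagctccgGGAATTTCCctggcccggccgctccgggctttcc
CXCL5: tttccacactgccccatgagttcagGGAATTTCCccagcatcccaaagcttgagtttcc
CXCL6: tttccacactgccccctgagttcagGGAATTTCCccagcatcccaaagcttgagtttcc
CXCL8: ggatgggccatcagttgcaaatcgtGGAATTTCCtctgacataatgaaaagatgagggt
CCL20: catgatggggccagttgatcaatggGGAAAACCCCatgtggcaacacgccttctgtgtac
NFKBIA: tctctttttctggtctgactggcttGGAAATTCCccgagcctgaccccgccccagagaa
TNFAIP3: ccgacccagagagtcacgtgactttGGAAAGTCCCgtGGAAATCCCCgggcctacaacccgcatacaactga

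Those windows lie at chr4:73869290-73869348 on the plus strand for CXCL1, chr4:74099239-74099297 on the minus strand for CXCL2 and chr4:74038734-74038792 on the minus strand for CXCL3. The CXCL5 window lies at chr4:73998734-73998792 on the minus strand, the CXCL6 window at chr4:73836564-73836622 on the plus strand and the CXCL8 window at chr4:73740453-73740511 on the plus strand. CCL20 is at chr2:227813738-227813797 on the plus strand, NFKBIA at chr14:35404797-35404855 on the minus strand and TNFAIP3 at chr6:137867167-137867238 on the plus strand. In the CXCL genes the matched run began between 77 and 91 bases upstream of the annotated start. The windows fall into look-alike groups: CXCL5 and CXCL6 shared 58 of 59 bases (98.3%) and CXCL1 and CXCL3 shared 55 (93.2%), while CXCL5 and CXCL1 shared 27 (45.8%). CXCL5 and CXCL8 shared 18 (30.5%). A match is a description of the letters, not evidence of binding. The genes were listed as part of the NF-kappaB programme, so a share of matches above that of all promoters is partly built into the choice. Matches in look-alike windows are also not independent of each other. The coding sequences within these groups are also close relatives, and whether the array probes tell CXCL1, CXCL2 and CXCL3 apart, or CXCL5 and CXCL6, was not tested.

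SMARCA4 was lower in all 6 siBRG1 arrays than in any siControl array, averaging 6.39 ± 0.14 in DLD1 siBRG1 and 10.18 ± 0.20 in DLD1 siControl, and 6.73 ± 0.32 in HCT 116 siBRG1 and 9.95 ± 0.32 in HCT 116 siControl (log2 level, SD, n = 3 each). The epithelial marker EPCAM was between 15.53 and 16.71 on every array, and the leukocyte marker PTPRC between 3.36 and 4.72. Of 9 epithelial markers measured, 7 in DLD1 and 6 in HCT 116 had means above a low-level yardstick, and CDH1 and CDX2 were lower in HCT 116 siControl than in DLD1 siControl, by -4.08 and -3.59. Markers of other cell types were not all low. Of 6 immune markers, 3 in each siBRG1 group and 2 in each siControl group were above the yardstick, with CD14 above it throughout. So were 1 of 4 fibroblast markers (COL1A2) and 1 of 4 endothelial markers (VWF) in every group. The median of all genes lay between 6.712 and 6.919 on the 12 arrays. The table has no detection calls, so the 95th percentile of 348 olfactory receptor genes, which are little used outside the nose, served as the yardstick; it was chosen after values had been seen and lay at 4.89 in DLD1 siBRG1, 4.97 in DLD1 siControl, 5.10 in HCT 116 siBRG1 and 5.18 in HCT 116 siControl. Of the 10 genes, 8 had means above it in each DLD1 group, all but CXCL1 and CCL20. In HCT 116 the means of 5 genes in siBRG1 and 6 in siControl were above it.

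Knockdown of BRG1 left the neutrophil-attracting chemokines without a called change in either line, and the one gene called among the 10 was TNFAIP2, in HCT 116. Log2 changes below are siBRG1 minus siControl, with a standard error (SE) and a p adjusted over all 17687 genes by the Benjamini-Hochberg method in limma's moderated fit, and a gene is called at an adjusted p under 0.05. None of the 10 genes was called in DLD1, where 0.198% of all genes were (35, against 1860 at an unadjusted p under 0.05, 2 of them members). With the replicate number as a block within each line, 98 genes were called in DLD1, again with none of the 10. In HCT 116, where 6.95% of all genes were called, 1 of the 10 was. The median log2 change of the 10 was 0.06 in each line, beside 0.01 over all genes in DLD1 and -0.01 in HCT 116. In bulk RNA, fewer expressing cells and less RNA per cell cannot be told apart.

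CXCL5 was at 15.14, 14.76 and 15.01 in DLD1 siBRG1 arrays, against 15.44, 15.82 and 15.51 in DLD1 siControl arrays. Every siBRG1 array was below every siControl array. The change was -0.62 (SE 0.22, 95% interval -1.08 to -0.16), with an unadjusted p of 0.0116 and an adjusted p of 0.287, so it did not pass the test. In HCT 116 the same gene was at 5.30, 4.50 and 4.93 with siBRG1, against 4.27, 4.60 and 4.57 with siControl, and the groups overlapped. The HCT 116 change was 0.43 (SE 0.22, interval -0.03 to 0.89, adjusted p = 0.28), and both means were below the low-level yardstick. The difference between the lines' changes was 1.06 (SE 0.31, adjusted p = 0.21).

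CXCL8 was at 7.82, 6.30 and 5.33 in DLD1 siBRG1 arrays, against 6.58, 6.63 and 5.15 in DLD1 siControl arrays. The groups overlapped, and siBRG1 replicate 1 was the highest array. The change of 0.36 (SE 0.50, interval -0.70 to 1.42, adjusted p = 0.893) was smaller than the SD of 1.26 between siBRG1 arrays. HCT 116 had 5.32, 4.80 and 4.79 with siBRG1, against 5.55, 5.01 and 5.40 with siControl, overlapping groups with a change of -0.35 (SE 0.50, adjusted p = 0.773), and the siBRG1 mean was not above the yardstick.

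CCL20, the ligand of CCR6, was at 5.89, 4.67 and 4.09 in DLD1 siBRG1 arrays, against 5.37, 4.95 and 4.20 in DLD1 siControl arrays. Replicate 1 was the highest and replicate 3 the lowest in both DLD1 groups, and the change was 0.05 (SE 0.43, adjusted p = 0.99). HCT 116 arrays lay at 3.64, 3.49 and 4.22 with siBRG1, against 3.46, 3.84 and 4.78 with siControl. All of these HCT 116 values are below the low-level yardstick, and the change was -0.24 (SE 0.43, adjusted p = 0.828).

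CXCL6, the closest relative of CXCL5 in the windows above, was at 7.04, 6.19 and 6.31 in DLD1 siBRG1 arrays, against 6.10, 6.92 and 6.32 in DLD1 siControl arrays. The groups overlapped fully (change 0.06, adjusted p = 0.979). In HCT 116 it was at 6.0, 5.14 and 5.91 with siBRG1, against 5.54, 5.24 and 4.78 with siControl. Here too the groups overlapped, and the change was 0.50 (SE 0.30, adjusted p = 0.399).

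CXCL1, CXCL2 and CXCL3, the 3 members with the most alike windows after CXCL5 and CXCL6, showed small changes that did not pass the test. CXCL1 averaged 4.25 ± 0.32 in DLD1 siBRG1 and 4.47 ± 0.11 in DLD1 siControl, and 4.54 ± 0.55 in HCT 116 siBRG1 and 4.55 ± 0.22 in HCT 116 siControl (SD, n = 3 each), with all 4 means below the yardstick. CXCL2 averaged 5.86 ± 0.24 in DLD1 siBRG1 and 5.97 ± 0.34 in DLD1 siControl, and 5.55 ± 0.12 in HCT 116 siBRG1 and 5.59 ± 0.35 in HCT 116 siControl. CXCL3 averaged 5.41 ± 0.30 in DLD1 siBRG1 and 5.33 ± 0.53 in DLD1 siControl, and 4.97 ± 0.35 in HCT 116 siBRG1 and 4.74 ± 0.14 in HCT 116 siControl. Neither HCT 116 mean of CXCL3 was above the yardstick. The changes of these 3 genes lay between -0.22 for CXCL1 in DLD1 and 0.23 for CXCL3 in HCT 116, and the lowest of their 6 adjusted p-values was 0.697.

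**Figure D1:**
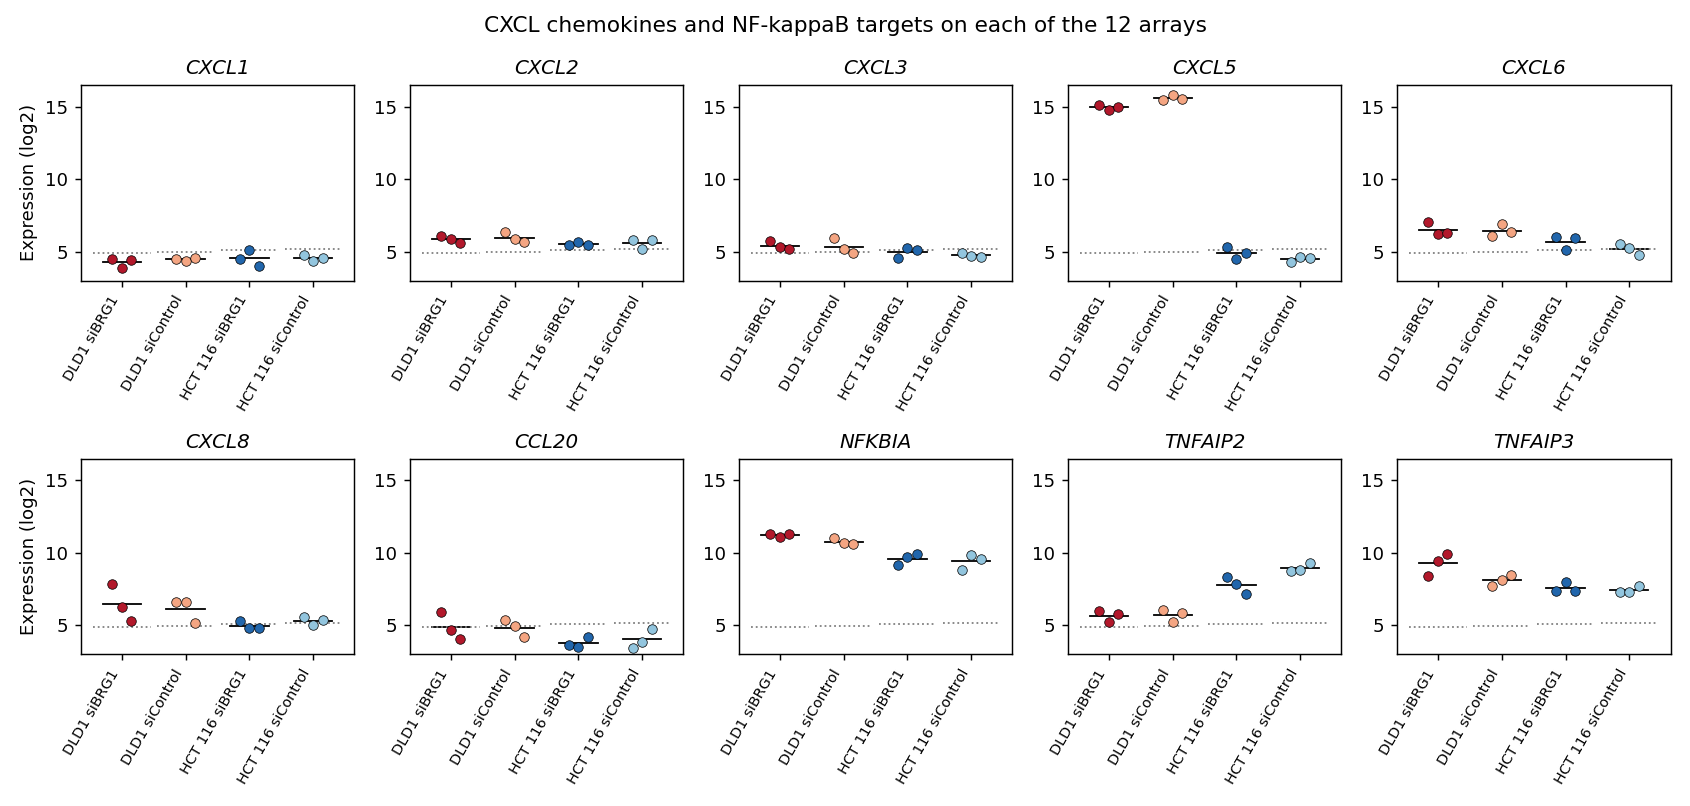
Log2 level (vertical axis) of each of the 10 genes on the 12 arrays, one panel a gene, with a dot per array, a black bar at the group mean of 3 arrays and a dotted line at the 95th percentile of 348 olfactory receptor genes in that group. CXCL5 lies between 14.76 and 15.82 on the DLD1 arrays and between 4.27 and 5.30 on the HCT 116 arrays, and TNFAIP2 is higher on every HCT 116 array than on any DLD1 array.

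TNFAIP2, the tumour necrosis factor-induced cytoplasmic protein, was the only one of the 10 genes called after knockdown, and it fell in HCT 116. Its levels were 8.33, 7.86 and 7.18 in HCT 116 siBRG1 arrays, against 8.78, 8.82 and 9.29 in HCT 116 siControl arrays. Every siBRG1 array was below every siControl array. The change was -1.18 (SE 0.30, interval -1.83 to -0.53), which is 2.26-fold lower, with an adjusted p of 0.0303, and 4.13% of all genes were called lower in that line. In DLD1 the gene was at 6.01, 5.23 and 5.77 with siBRG1, against 6.08, 5.21 and 5.84 with siControl. Those DLD1 groups lay on top of each other (change -0.04, SE 0.30, adjusted p = 0.989).

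The TNFAIP2 call did not stand without some arrays. It was lost without HCT 116 siControl replicate 2 (-1.25, adjusted p = 0.0691) or 3 (-1.01, adjusted p = 0.117), and without HCT 116 siBRG1 replicate 2 (-1.21, adjusted p = 0.0752) or 3 (-0.87, adjusted p = 0.143), and it stood in 8 of 12 fits that left out 1 array. These are the 4 arrays with other source names; with all 4 left out, 1 array remained in each HCT 116 group, the spread came from DLD1 alone, the change was -0.45 and the adjusted p 0.798. With HCT 116 fitted alone the adjusted p was 0.0516.

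TNFAIP3, which encodes A20, had the largest DLD1 change of the 10 genes without passing the test. It was at 8.44, 9.47 and 9.95 in DLD1 siBRG1 arrays, against 7.74, 8.11 and 8.49 in DLD1 siControl arrays. Only siBRG1 replicate 1 fell within the siControl range. The change was 1.17 (SE 0.32, interval 0.48 to 1.87), which is 2.26-fold, with an unadjusted p of 0.00258 and an adjusted p of 0.169. By replicate number the siBRG1 array was higher by 0.70, 1.36 and 1.47, and without DLD1 siBRG1 replicate 1 the change was 1.60 (adjusted p = 0.0269). In HCT 116 it was at 7.37, 7.97 and 7.38 with siBRG1, against 7.29, 7.33 and 7.72 with siControl. Those groups overlapped, with a change of 0.13 (SE 0.32, adjusted p = 0.886).

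NFKBIA, the gene of the inhibitor IkappaB-alpha, was at 11.28, 11.09 and 11.27 in DLD1 siBRG1 arrays, against 11.02, 10.71 and 10.62 in DLD1 siControl arrays. The DLD1 groups did not overlap, but the change of 0.43 (SE 0.25, interval -0.11 to 0.97) had an adjusted p of 0.62. In HCT 116 it was at 9.18, 9.72 and 9.91 with siBRG1, against 8.85, 9.84 and 9.60 with siControl, with overlapping groups and a change of 0.17 (SE 0.25, adjusted p = 0.787). NFKBIA and CXCL5 were the 2 of 10 genes whose DLD1 groups did not overlap, beside 15.5% of all genes. In HCT 116 it was 1 of 10, TNFAIP2, beside 24.9% of all genes.

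**Figure D2:**
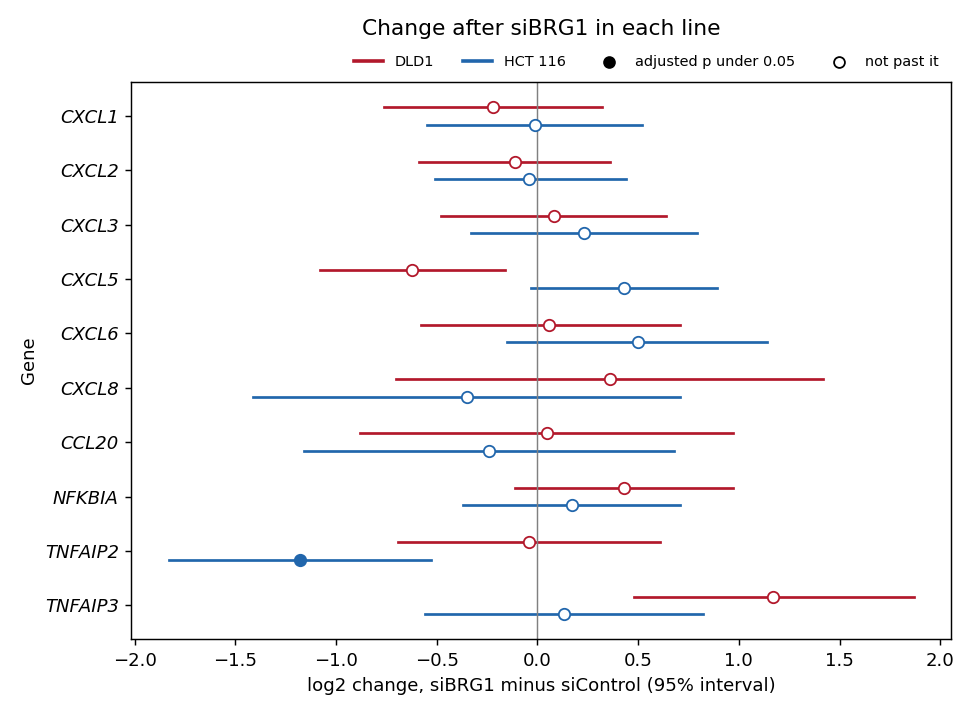
Log2 change, siBRG1 minus siControl (horizontal axis), of each of the 10 genes in DLD1 and HCT 116, with its 95% interval from the fit over 12 arrays; a filled symbol marks an adjusted p under 0.05. The single filled symbol is TNFAIP2 in HCT 116 at -1.18, and TNFAIP3 in DLD1 lies farthest to the right at 1.17.

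Whether the response to BRG1 knockdown differed between the lines was tested as the HCT 116 change minus the DLD1 change. None of the 10 genes passed, beside 0.334% of all genes (59, against 1590 at an unadjusted p under 0.05). The largest estimates were -1.14 for TNFAIP2 (SE 0.43, adjusted p = 0.396), 1.06 for CXCL5 and -1.05 for TNFAIP3 (SE 0.46, adjusted p = 0.507). For CXCL8 it was -0.71 (SE 0.70, adjusted p = 0.872). For the other 6 genes the estimates lay between -0.29 for CCL20 and 0.43 for CXCL6. The TNFAIP2 call in HCT 116 and its absence in DLD1 therefore do not show that the lines responded differently.

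The lines themselves differed at several of these genes with and without BRG1 knockdown. In siControl arrays 4 of 10 genes were called between HCT 116 and DLD1, beside 27.6% of all genes, and in siBRG1 arrays 5 of 10, beside 30.8%. Differences are HCT 116 minus DLD1. These contrasts use the same arrays as the knockdown contrasts above, so they are not separate evidence on them.

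CXCL5 differed by -10.06 in siBRG1 arrays (SE 0.22, adjusted p = 1.06e-13) and by -11.11 in siControl arrays (SE 0.22, adjusted p = 2.48e-14). Since its HCT 116 means lay within the range of olfactory receptor genes, the size of the difference is uncertain and no fold is given. NFKBIA was lower in HCT 116 by -1.62 in siBRG1 arrays (adjusted p = 0.000142) and -1.35 in siControl arrays (adjusted p = 0.000767). TNFAIP2 was higher in HCT 116, by 2.12 in siBRG1 arrays (adjusted p = 6.16e-05) and 3.25 in siControl arrays (adjusted p = 7.88e-07). These 3 genes were called in both sets of arrays, also in each of the 12 fits that left out 1 array and with the 4 arrays of other source names left out.

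Another 3 genes were called in only one set of arrays. The difference between the sets is the difference of the lines' changes tested above, and for none of them did it pass: 0.43 for CXCL6 (adjusted p = 0.872), -1.05 for TNFAIP3 (adjusted p = 0.507) and -0.71 for CXCL8 (adjusted p = 0.872). CXCL6 was lower in HCT 116 by -1.26 in siControl arrays (adjusted p = 0.00516), and by -0.82 in siBRG1 arrays with an adjusted p of 0.051. Its HCT 116 siControl mean of 5.19 was at the yardstick of 5.18, so the size of the siControl difference is uncertain. With the 4 arrays of other source names left out, the siControl value was -0.90 (adjusted p = 0.145). TNFAIP3 differed by -1.71 in siBRG1 arrays (adjusted p = 0.000757; -1.91 and 0.0245 with those 4 arrays left out) and by -0.66 in siControl arrays, without a call (adjusted p = 0.156). CXCL8 differed by -1.51 in siBRG1 arrays (adjusted p = 0.03) and by -0.80 in siControl arrays (adjusted p = 0.278). Its HCT 116 siBRG1 mean of 4.97 was not above the yardstick of 5.10, so the size of the siBRG1 difference is uncertain. The CXCL8 call was lost without DLD1 siBRG1 replicate 1 (-0.84, adjusted p = 0.153) or 2 (-1.61, adjusted p = 0.052), without HCT 116 siBRG1 replicate 2 (-1.43, adjusted p = 0.0833) or 3 (-1.42, adjusted p = 0.0879), and without the 4 arrays of other source names (-1.16, adjusted p = 0.387).

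CCL20 was lower in HCT 116 by -1.10 in siBRG1 arrays (adjusted p = 0.0686) and by -0.81 in siControl arrays (adjusted p = 0.198), both short of the threshold. Its mean was not above the yardstick in any group, so the sizes are uncertain. CXCL1, CXCL2 and CXCL3 were not called in either set, with differences from -0.59 for CXCL3 in siControl arrays to 0.29 for CXCL1 in siBRG1 arrays. The means of CXCL1 in every group and of CXCL3 in HCT 116 were also not above the yardstick. The median difference of the 10 genes was -0.96 in siBRG1 arrays and -0.73 in siControl arrays, beside 0.03 over all genes in both. The groups did not overlap at 6 of 10 genes in each set, beside 42.3% of all genes in siBRG1 arrays and 40% in siControl arrays. By group mean, TNFAIP2 ran in the order HCT 116 siControl, HCT 116 siBRG1, then both DLD1 groups, between which the test found no difference. For CXCL5 both DLD1 groups were above both HCT 116 groups, and neighbouring groups of the same line did not pass the test.

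The 6 CXCL genes lie within a stretch of 13 measured genes on chromosome 4, with the platelet chemokine genes PF4V1, PF4 and PPBP between the first and last of them. Beside CXCL5, the difference between lines was called in both sets of arrays at PF4, by -1.73 in siBRG1 arrays (adjusted p = 3.05e-05) and -1.61 in siControl arrays (adjusted p = 6.94e-05), and at PF4V1, by -1.21 (adjusted p = 0.000203) and -0.94 (adjusted p = 0.00199). With the 4 arrays of other source names left out, PF4V1 in siControl arrays was at -0.70 (adjusted p = 0.126), and the other 3 of these calls stood, at adjusted p-values up to 0.0149. In HCT 116, PF4 averaged 5.22 in siBRG1 and 5.45 in siControl, and PF4V1 5.36 and 5.23, close to the yardsticks of 5.10 and 5.18. The sizes of these differences are therefore uncertain. PF4 and PF4V1 are near-identical genes whose probes may not tell them apart, which was not tested. PPBP, which lies next to CXCL5 in the order, was not called in either set, at 0.24 in siBRG1 arrays and 0.47 in siControl arrays. Among the flanking genes, AFM, the gene of a vitamin E-binding plasma protein, was higher in HCT 116 siControl arrays by 0.55 (adjusted p = 0.0244), at group means between 2.88 and 3.43, all below the yardstick, and its call was lost with the 4 arrays left out (adjusted p = 0.165). RASSF6, MTHFD2L and EPGN were not called.

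**Figure D3:**
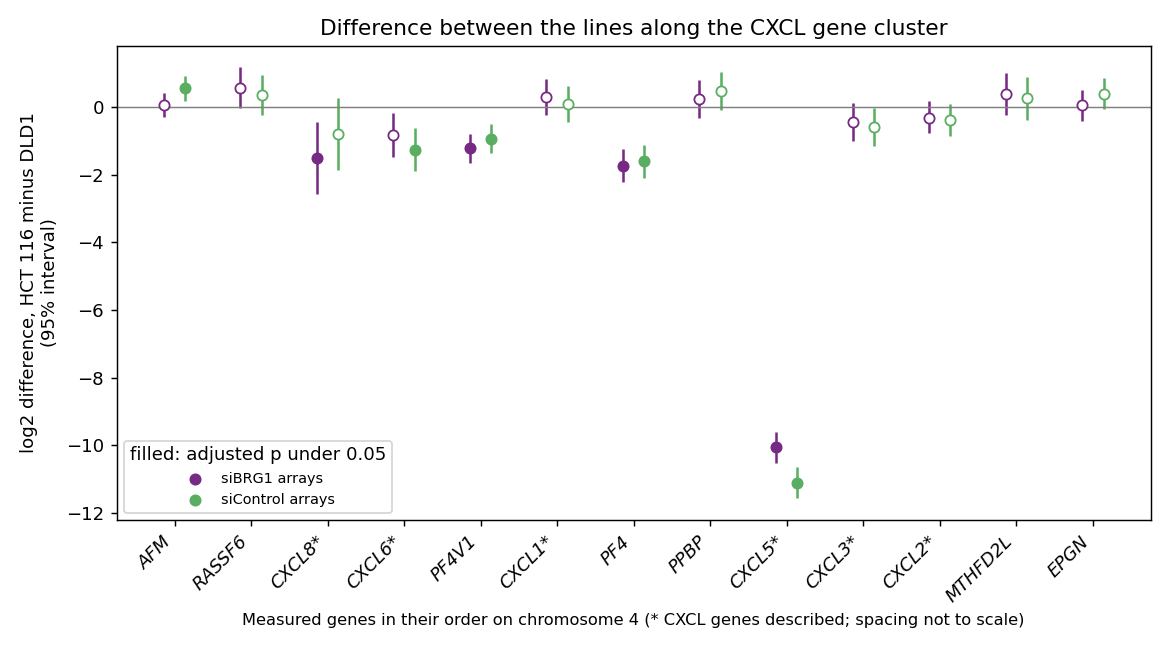
Difference in log2 level, HCT 116 minus DLD1 (vertical axis), in siBRG1 and in siControl arrays for 13 genes in their chromosome 4 order (horizontal axis), 3 arrays a group, with 95% intervals and filled symbols for an adjusted p under 0.05. CXCL5 stands at -10.06 in siBRG1 arrays and -11.11 in siControl arrays, while the other 12 genes lie between -1.73 and 0.57.

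The rest of the pathway was read from lists of receptors, other chemokines, NF-kappaB subunits, upstream signalling genes, other targets and regulators of AU-rich mRNA decay. None of the genes on these lists was called in DLD1. In HCT 116 there were 1 on the receptor list (SDC1, not itself a chemokine receptor), 8 among the upstream genes, 2 among the mRNA decay genes and 0 on the other lists. These are 1 of 8, 8 of 30 and 2 of 5 measured genes, beside 6.95% of all genes. Without 1 array the upstream calls numbered 3 to 7 and the mRNA decay calls 0 to 2. With the 4 arrays of other source names left out, 1 array remained in each HCT 116 group, too few to decide these calls. The upstream and mRNA decay genes had median levels of 8.60 and 14.40, above the median of all genes. Calls in HCT 116 were more frequent at such levels: 1439 with only genes above the median level tested, against 1230 of all genes. The 6.95% is therefore a low share to set beside these lists. No list was tested as a whole.

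On the receptor list 8 of 8 genes were measured, and SDC1 was the 1 called in HCT 116. None of the chemokine receptor genes on the list was called in either line. SDC1 encodes syndecan-1, a cell-surface proteoglycan that binds chemokines through its heparan sulfate chains. It averaged 8.37 ± 0.03 in HCT 116 siBRG1 and 10.08 ± 0.13 in HCT 116 siControl (SD, n = 3 each), a change of -1.71 (SE 0.29, adjusted p = 0.00296). In DLD1 its change was -0.83 (adjusted p = 0.292), and that of the decoy receptor gene ACKR1 was -0.38 (adjusted p = 0.671). CXCR2, the shared receptor of the neutrophil-attracting ligands, averaged 4.30 in DLD1 siBRG1, 4.66 in DLD1 siControl, 4.68 in HCT 116 siBRG1 and 4.63 in HCT 116 siControl, below the yardstick in every group, and CCR6 averaged between 4.41 and 4.84.

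Among 17 other chemokine genes, none was called after knockdown in either line, and their median change was -0.07 in DLD1 and 0.12 in HCT 116. The largest HCT 116 changes were 0.64 for CXCL16, a transmembrane chemokine (adjusted p = 0.101), and 0.48 for CXCL14 (adjusted p = 0.141). In DLD1 they were 0.41 for PF4V1 (adjusted p = 0.492) and 0.28 for CCL5 (adjusted p = 0.724). Between the lines, 4 of the 17 were called lower in HCT 116 in siBRG1 arrays (23.5%, beside 30.8% of all genes called) and 5 in siControl arrays (29.4%, beside 27.6%), and none higher. These shares are near those of all genes, and with the 4 arrays of other source names left out the calls numbered 3 in siBRG1 arrays and 2 in siControl arrays. CCL28, a mucosal chemokine made by epithelium, averaged 4.0 ± 0.44 in HCT 116 siBRG1 and 7.66 ± 0.24 in DLD1 siBRG1, a difference of -3.67 (adjusted p = 3.55e-09), and 3.59 ± 0.14 in HCT 116 siControl and 7.73 ± 0.03 in DLD1 siControl, a difference of -4.15 (adjusted p = 9.3e-10). CX3CL1, a membrane-bound chemokine, differed by -1.43 in siBRG1 arrays (adjusted p = 0.00458) and -1.81 in siControl arrays (adjusted p = 0.000833). As with CXCL5, the HCT 116 means of both genes were below the yardstick, so the sizes are uncertain. With the 4 arrays of other source names left out, the CCL28 calls stood, and those of CX3CL1 were lost (adjusted p = 0.0927 in siBRG1 arrays and 0.0537 in siControl arrays).

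Of the NF-kappaB subunits and their inhibitors, 9 of 10 were measured and none was called after knockdown, with median changes of 0.16 in DLD1 and 0.47 in HCT 116. The largest changes in HCT 116 were 0.69 for REL, the c-Rel subunit (adjusted p = 0.0638), and 0.63 for RELB (adjusted p = 0.39). In DLD1 they were 0.65 for NFKB2, the p100 precursor of the non-canonical pathway (adjusted p = 0.255), and -0.37 for NFKBID, an atypical nuclear inhibitor (adjusted p = 0.87). Of 33 other NF-kappaB target genes, 27 were measured and none was called in either line. Their median change was 0.00 in DLD1 and 0.08 in HCT 116. In DLD1 the largest were TRAF1, a signalling adaptor, at 0.81 (adjusted p = 0.39) and EFNA1, an ephrin ligand, at 0.63 (adjusted p = 0.446). In HCT 116 they were EFNA1 at 0.76 (adjusted p = 0.126) and PLAU, the urokinase plasminogen activator, at 0.69 (adjusted p = 0.0667).

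Of 36 genes of upstream signalling, 30 were measured, and in HCT 116 5 were called higher and 3 lower. MAP3K14, the NF-kappaB-inducing kinase of the non-canonical pathway, averaged 8.57 ± 0.42 in HCT 116 siBRG1 and 6.50 ± 0.25 in HCT 116 siControl (SD, n = 3 each), a change of 2.06 (SE 0.41, adjusted p = 0.00775). BIRC2, the ubiquitin ligase cIAP1, averaged 11.63 ± 0.26 in HCT 116 siBRG1 and 10.17 ± 0.17 in HCT 116 siControl, a change of 1.46 (SE 0.18, adjusted p = 0.000382). TLR3, a receptor for double-stranded RNA, averaged 5.96 ± 0.17 in HCT 116 siBRG1 and 7.48 ± 0.07 in HCT 116 siControl, a change of -1.52 (SE 0.19, adjusted p = 0.000336).

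IRAK2, a kinase of interleukin-1 and Toll-like receptor signalling, averaged 5.75 ± 0.22 in HCT 116 siBRG1 and 4.72 ± 0.34 in HCT 116 siControl, a change of 1.03 (SE 0.24, adjusted p = 0.018). The HCT 116 siControl mean was below the yardstick of 5.18, so the size of this change is uncertain. In DLD1 it was at 6.73 ± 0.29 with siBRG1 and 5.72 ± 0.38 with siControl, a change of 1.01 that was not called (SE 0.24, adjusted p = 0.108). MAP3K14 changed by 1.26 in DLD1 without a call (adjusted p = 0.251). No upstream gene passed the test of a difference between the lines' changes, TLR3 with -1.06 (adjusted p = 0.132) and BIRC2 with 0.92 (adjusted p = 0.197) included.

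Of 6 regulators of AU-rich mRNA decay, the route by which many chemokine mRNAs are cleared, 5 were measured and 2 rose in HCT 116. ZFP36, which encodes tristetraprolin, a protein that promotes this decay, averaged 11.01 ± 0.11 in HCT 116 siBRG1 and 10.14 ± 0.43 in HCT 116 siControl, a change of 0.87 (SE 0.23, adjusted p = 0.0317). Its relative ZFP36L1 averaged 15.05 ± 0.08 in HCT 116 siBRG1 and 14.28 ± 0.27 in HCT 116 siControl, a change of 0.77 (SE 0.18, adjusted p = 0.0211). In DLD1 the largest changes were -0.46 for ELAVL1, which encodes the mRNA-stabilizing protein HuR (adjusted p = 0.318), and -0.33 for ZFP36L2 (adjusted p = 0.604). SDC1, MAP3K14, BIRC2 and TLR3 kept their calls in each of 12 fits that left out 1 array, IRAK2 and ZFP36L1 in 8 and ZFP36 in 7. The other 4 upstream calls stood in 8 (TAX1BP1), 7 (MYD88), 4 (MAP3K7) and 1 (TAB2) of the 12 fits. With the 4 arrays of other source names left out, all 11 of these genes kept the sign of their change. That fit has 1 array in each HCT 116 group, so it cannot decide these calls. Among markers of other cell types, CD68 of macrophages rose in HCT 116 by 1.29 (SE 0.23, adjusted p = 0.0036), averaging 7.05 in siBRG1 and 5.76 in siControl. With the 4 arrays left out its change was 1.07. CD68 was the only 1 of 6 immune markers called. The median level of the 6 was 4.79 in HCT 116 siBRG1 and 4.80 in HCT 116 siControl. PTPRC stayed below the yardstick in every group, while CD14 was above it in every group, with means between 5.60 and 6.85.

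**Figure D4:**
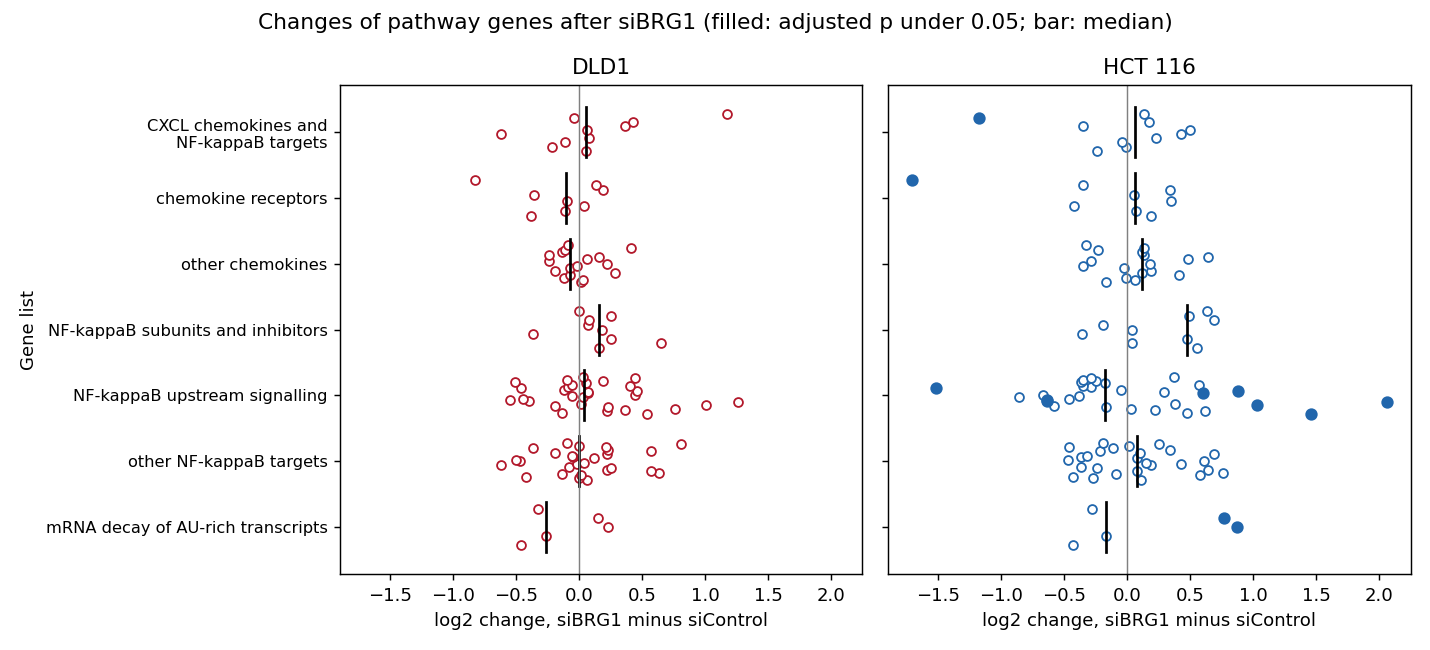
Log2 change, siBRG1 minus siControl (horizontal axis, one panel per line), of the 10 genes in the top row and of the measured genes of each pathway list below it, with a point per gene, a bar at the median and filled points for an adjusted p under 0.05. No gene shown is filled in DLD1, and in HCT 116 the filled points run from SDC1 at -1.71 to MAP3K14 at 2.06.

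Some chemokine genes varied together between arrays of the same group. With each group centred on its mean over 12 arrays, the highest Pearson's r was 0.74, for CXCL8 and CCL20. Next came 0.73 for CXCL2 and CXCL3, 0.65 for CXCL2 and CXCL8 and 0.62 for CXCL5 and CXCL6. Other chemokine pairs ran opposite, such as CXCL3 and CXCL5 (-0.44) and CXCL1 and CXCL5 (-0.35). The r of largest size among all pairs of the listed genes was negative, -0.85 for CXCL8 and TNFAIP3. TNFAIP3 also ran opposite to CCL20 (-0.67), CXCL6 (-0.63) and CXCL3 (-0.53), but not to CXCL1 (0.16). CXCL8 varied more between arrays in DLD1 (SD 1.26 in siBRG1 and 0.84 in siControl) than in HCT 116 (0.31 and 0.28). Its r values therefore weigh the DLD1 arrays most. The mean of CCL20 was not above the yardstick in any group, and all its HCT 116 values were below it. The r values are descriptions, with no test. The labels do not say whether arrays share an RNA preparation, and effects of a whole array on these r values were not tested. DLD1 siBRG1 replicate 1 was the array with the highest CXCL values of its group, on average 0.47 above the group mean over the 6 CXCL genes, against -0.19 for replicate 2 and -0.28 for replicate 3. In DLD1 siControl the deviations were 0.16, 0.14 and -0.30.

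The genes whose levels ran most like the mean of the 6 z-scored CXCL genes over the 12 arrays were TM7SF2 (Pearson's r = 0.942), CCDC28A (0.93), ZBTB44 (0.923), DRAM2 (0.916) and TMEM50A (0.913), among genes above the median level. With each line centred on its own mean they were TM7SF2 (0.893), DPH5 (0.881), MID1IP1 (0.86), KRT76 (0.826) and RGS2 (0.821). TM7SF2 fell with replicate number in both DLD1 groups, at 12.66, 11.44 and 11.25 with siBRG1 and 12.57, 12.05 and 11.35 with siControl. MID1IP1, KRT76 and RGS2 fell likewise, and DPH5 only in siControl. The average CXCL deviations given above fell in that order too. Whether replicate order underlies the likeness was not tested. In HCT 116 the means of CXCL1, CXCL3 and CXCL5 were not above the yardstick. TM7SF2, a sterol reductase of cholesterol synthesis, was lower in HCT 116 by -1.79 in siBRG1 arrays (adjusted p = 0.000703) and -2.0 in siControl arrays (adjusted p = 0.000302), and was not called after knockdown in either line. TM7SF2 was picked over these same 12 arrays by its likeness to a CXCL mean that itself differs between the lines. Its line differences are therefore partly built into the choice, and their p-values are not separate evidence. With the 4 arrays of other source names left out, the siBRG1 difference was -1.72 (adjusted p = 0.0583) and the siControl difference -1.91 (adjusted p = 0.0367).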

How the data were processed

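Total RNA was biotin-labelled and hybridised to 1 Affymetrix array per sample. The deposited log2 levels were produced by RMA (Affymetrix Power Tools is also named), per the submitters' processing notes. Tool versions and the genome build were not given in the sources used. Values run from 2.16 to 18.05, and 94 to 112 per array exceed 16, so the log2 scale includes a step that the labels do not name. Of 21448 features, 17709 carry 1 gene symbol in GEO's platform annotation, 0 several and 3739 none; for the 20 genes with several features the one with the highest mean was kept, which left 17687 genes.

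The 4 group means were fitted over all 12 arrays with limma 3.58.1 in R 4.3.3 (lmFit, eBayes), with 8 residual and 6.66 prior degrees of freedom, after tests on simulated data. P-values were adjusted over all genes by Benjamini-Hochberg, and a gene was called under 0.05. The number of arrays limits the precision. Promoters are RefSeq's, on GRCh38.p14.

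Members and gene lists were chosen with earlier results of these data known. Named genes are all members, SMARCA4, and per list and line up to 4 called genes by size or, with none called, the 2 largest changes; likeness names the 5 genes of highest r. CXCR2, CCR6, TAX1BP1, MYD88, MAP3K7, TAB2, the neighbours on chromosome 4, the chemokines that differ between lines and the markers were named after their values were seen.

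Same-numbered siBRG1 and siControl arrays deviated together in DLD1 (r = 0.49, 0.46 and 0.29) but not throughout in HCT 116 (0.30, 0.15 and 0.03); the pairing comes from the data, not the labels. Alternatives were a replicate block, each line alone, other scalings, filters, priors and weights, and leaving out arrays.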

Additional observations from a re-analysis of the deposited data

How the results depend on the processing

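CXCL5, NFKBIA and TNFAIP2 kept their direction and their calls between the lines in each of the 12 fits without 1 array. The number of calls over all genes was less steady. In DLD1 it was 4 with the line fitted alone, 63 with a trended robust prior, 128 with array weights and 98 with a replicate block within each line, a setting added after seeing the data; without 1 array it ran from 7 to 66 and the members called from 0 to 1. In HCT 116 it was 2035 with array weights and 2123 with that block, and from 618 to 1271 without 1 array; the members called were 0 with the line alone and from 0 to 1 without 1 array. For the difference between lines it was 162 with array weights and from 26 to 71 without 1 array. Leaving out the 4 arrays with other source names, also chosen after seeing the data, left 4 genes called in DLD1, 15 in HCT 116 with 0 members, 4 for the difference and 3551 between lines in siBRG1 arrays; this setting has fewer arrays.

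With the replicate block over all arrays, 32 genes were called in DLD1 with 0 members, 1358 in HCT 116 with 1 member, and 56 for the difference with 0 members; between lines it called 5066 genes in siControl arrays with 4 members and 5648 in siBRG1 arrays with 5. TNFAIP3 in DLD1 had an adjusted p of 0.101 with that block and 0.0532 with the block within lines, and TNFAIP2 in HCT 116 had 0.0228 and 0.0198.

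Some small changes turned sign, and the cause was not tested. In DLD1, CCL20 was -0.01 after centring arrays and -0.03 with array weights, and CXCL6 -0.01 with array weights. In HCT 116, CXCL2 was 0.00 after quantile normalization, 0.04 after centring and 0.10 with weights, CXCL1 0.06 after centring and 0.07 with weights, and, with the 4 arrays left out, CXCL3 -0.33 and CCL20 0.18. The difference between lines was then -0.04 for CXCL1, -0.22 for CXCL2, -0.41 for CXCL3 and 0.14 for CCL20. CXCL1 between siControl lines was -0.02 with weights. Without 1 array, the DLD1 changes ran from -0.25 to 0.07 for CXCL2, -0.14 to 0.38 for CXCL3, -0.20 to 0.30 for CXCL6, -0.31 to 0.94 for CXCL8, -0.46 to 0.44 for CCL20 and -0.29 to 0.18 for TNFAIP2. The HCT 116 changes ran from -0.29 to 0.25 for CXCL1, -0.24 to 0.08 for CXCL2, -0.53 to 0.14 for CCL20, -0.12 to 0.38 for NFKBIA and -0.07 to 0.26 for TNFAIP3. The differences ran from -0.08 to 0.47 for CXCL1, -0.13 to 0.22 for CXCL2, -0.14 to 0.37 for CXCL3 and -0.68 to 0.22 for CCL20, and CXCL1 between siControl lines from -0.02 to 0.20. A filter on genes above the median level gave no value for CXCL1, CXCL2, CXCL3, CXCL6, CXCL8 and CCL20, and it is for such low signals that the arrays limit what can be seen.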
